A study of Sus scrofa with 48 samples.

Results

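The diet response of efficient pigs was examined in subcutaneous adipose tissue (SCAT) of Large White barrows from a line selected for low residual feed intake (RFI), that is, for eating less than growth and body size predict. The arrays were chosen by their sample titles, which gave 12 low RFI pigs fed the HF diet and 12 low RFI pigs fed the LF diet, 24 of the 48 arrays of the series, with 1 array per pig. The HF diet was rich in fat from plant oils and in fiber from wheat straw, and the LF diet was poor in fat and fiber and rich in cereal starch. Both were formulated to like energy and protein contents and were fed from mid-growth until sampling of the dorsal fat. Per the labels all pigs were 132 days old and ate freely. The remaining 24 arrays came from high RFI pigs fed the same diets, and they enter here through the common estimate of the spread and as a side-by-side comparison. All low RFI pigs came from a single selected line.

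Subcutaneous fat of the pig takes up glucose and turns part of it into fatty acids, which are stored with dietary fatty acids as triglycerides in the lipid droplet of the adipocyte. Sugar enters through transporters of the SLC2A family and is trapped by hexokinases, and the genes of fatty acid synthesis are driven by the transcription factors SREBF1 and MLXIPL. Fatty acids from the diet are sensed by the nuclear receptors PPARA, PPARD and PPARG, which pair with RXRA. The tissue also makes hormones, among them leptin and adiponectin. The question here was which of these genes, and which others, differed between diets within the efficient line.

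Of 3 array measures, the share of probes detected showed no called difference between diets, and the other 2 differed slightly. The share of probes well above background ran from 65.7% to 81.9% of probes under the HF diet (median 75.5%) and from 69.3% to 78.6% under the LF diet (median 73.9%), a mean difference of 1.18 percentage points (permutation test, two-sided, p = 0.407, adjusted p = 0.407 over 3 array measures). The median log2 signal per array before centring was higher under HF by 0.14 (8.43 ± 0.16 against 8.29 ± 0.16, SD, n = 12 each, permutation test p = 0.0490, adjusted p = 0.0734), a shift that the centring of each array removes. The median correlation of an array with the other low RFI arrays was 0.983 under HF and 0.981 under LF (means, permutation test p = 0.0202, adjusted p = 0.0605), with the lowest values at LF replicates 4 and 7. All 12 adipocyte markers, including ADIPOQ, LEP, PLIN1 and FABP4, were well above background on all 24 arrays.

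Diet and the place of an array on its slide were hardly separable in the low RFI line. Each of the 6 slides held 8 arrays, 2 of each group, and each of the 2 scan dates covered 3 slides, so that diets were balanced over slides and scan dates. Within slides, HF arrays stood at positions 1 (4 arrays), 4, 5, 6 and 7 (2 arrays each), while LF arrays stood at positions 2, 3 and 8 (3 arrays each), 7 (2 arrays) and 5 (1 array). Only 2 of the 8 positions thus held both diets, with 7 of the 24 arrays. The scanner files give the position but no effect of it. A test of the position term over all arrays gave 4 genes at an adjusted p under 0.08 and 201 at a raw p under 0.05. Among high RFI arrays the same test gave 0 and 231 genes. The part of position in the diet differences below was not tested beyond these values and those given with the results.

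In low RFI pigs, 646 probes (1.46%) were higher and 703 (1.58%) lower under the HF diet, 1349 differentially expressed probes (DEP) or 3.04% of the 44356 tested. The cut-offs of the study were kept, with a Benjamini-Hochberg adjusted p under 0.08 (limma), a raw p under 0.01 and a change of more than 1.1-fold. At the level of genes, each read from its brightest probe, 70 genes were over-expressed and 204 under-expressed, 274 differentially expressed genes (DEG) or 2.47% of the 11113 tested (0.630% higher, 1.84% lower). Most changes were small, with a median absolute log2 fold change of 0.33 among DEG. The change exceeded 1.5-fold for 39 DEG, 19 of them higher and 20 lower under HF, and 2-fold for 7. No gene separated the 12 HF from the 12 LF arrays without overlap.

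The balance of directions depended on how arrays were scaled. With each array centred on its 75th percentile in place of its median, 116 genes were higher and 73 lower, and with quantile normalization 68 were higher and 94 lower. The median log2 fold change over all genes was -0.04 with median centring and 0.01 with the 75th percentile. All 274 DEG kept their direction under both scalings, which the 75th percentile could not change, since it shifts all genes alike by less than the smallest called change. Of the called genes that the naming rule picked, LCN2, NFE2, UPK1A, GSK3B, DNAJC3, OS9, PSMD7, PSMD12, ADIPOR2, CDKN1A and HOMER2 were not called with the 75th percentile. Blocking on slide gave 558 DEG and blocking on scan date gave 416, the 274 among them each time. With the position on the slide as a block, no gene was called (limma, smallest adjusted p 0.0944, 1203 genes at a raw p under 0.05), while all 274 DEG kept their direction and their median absolute log2 fold change was 0.36. All 274 were among those 1203 genes, in a fit to the same arrays that had made the calls. The standard errors of that fit were larger by a median factor of 1.30 over all genes. Within position 5 (2 HF arrays against 1 LF array) 269 of the 274 DEG had the direction of their call, and within position 7 (2 against 2) 263 had it, against 69.6% of all genes at position 7 that had the direction of their full comparison. These arrays are part of those that made the calls.

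**Figure D1:**
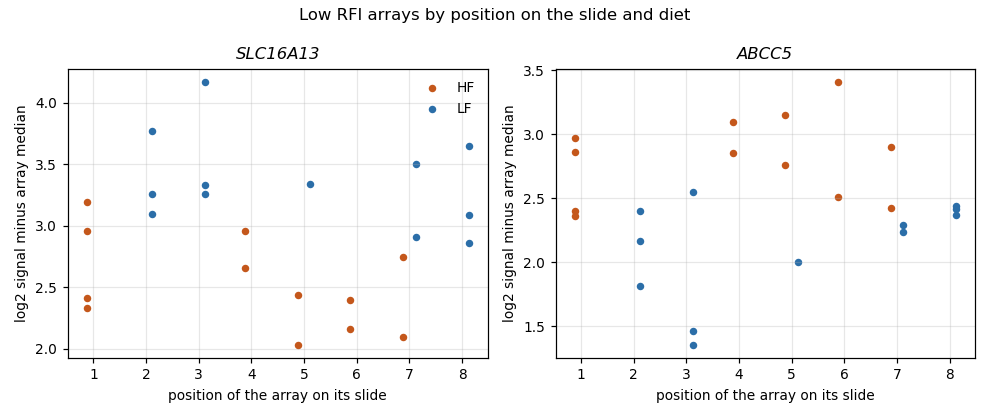
Level of SLC16A13 (left) and ABCC5 (right), as log2 signal minus the array median, by position of the array on its slide, with 1 point per low RFI pig and colour by diet. Positions 5 and 7 hold both diets. At both of them the HF arrays lie below the LF arrays for SLC16A13 and above them for ABCC5. These are examples, and some other called genes differed less there. MLPH differed by 0.10 (log2) at position 7 against 0.98 in full, and NFE2 by -0.16 at position 5 against -0.81 in full.

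SLC2A5, HK2 and SLC16A13 were among the 10 named genes with the largest decreases. SLC2A5, the fructose transporter GLUT5, had log2 levels (signal minus array median) of -2.65 at the lowest, -1.77 at the median and -0.48 at the highest HF array, against -1.59, -0.55 and -0.12 under LF. Of the HF arrays, 11 lay below the LF median and 7 below every LF array. The gene fell by 1.09 ± 0.24 on the log2 scale (SE), or 2.13-fold (adjusted p = 0.0178). Of the kept probes, 1 carries its symbol and a second, without a symbol, has the same sequence, so that the sequence shown here is all that the result rests on.
SLC2A5: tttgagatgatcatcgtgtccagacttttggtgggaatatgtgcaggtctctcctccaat

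HK2, the hexokinase that traps glucose as glucose 6-phosphate in insulin-responsive tissues, ran from 3.39 through a median of 4.49 to 5.33 under HF, and from 4.44 through 5.32 to 5.96 under LF. The groups overlapped, with 5 HF arrays below every LF array. The gene fell by 0.82 ± 0.20 (log2, SE, 1.76-fold, adjusted p = 0.0270), and both of its probes, of different sequence, were called. SLC16A13, a member of the monocarboxylate transporter family, ran from 2.03 through 2.43 to 3.19 under HF and from 2.86 through 3.30 to 4.17 under LF, with 9 HF arrays below every LF array. It fell by 0.82 ± 0.18 (log2, SE, adjusted p = 0.0135), and its other probe, of different sequence and also called, gave -0.42.

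PTGDS, LCN2 and CYP4F2 were also among these genes. PTGDS, the lipocalin that makes prostaglandin D2, ran from 1.55 through 2.75 to 3.51 under HF and from 2.24 through 3.83 to 4.79 under LF. All 12 HF arrays lay below the LF median, and the gene fell by 1.24 ± 0.28 (log2, SE, 2.36-fold, adjusted p = 0.0178). LCN2, a lipocalin that binds bacterial siderophores and is made by fat cells and neutrophils, ran from -0.67 through 0.64 to 2.03 under HF and from -0.36 through 1.93 to 3.25 under LF. It fell by 1.16 ± 0.35 (log2, SE, adjusted p = 0.0714), but kept its call in only 7 of the 24 fits that left out 1 low RFI array, with adjusted p up to 0.139. CYP4F2, a cytochrome P450 of the family that hydroxylates fatty acids and eicosanoids at the chain end, ran from -2.95 through -1.81 to 0.34 under HF and from -1.92 through -0.17 to 0.91 under LF. Its decrease was the largest among the named genes, at -1.46 ± 0.33 (log2, SE, 2.75-fold, adjusted p = 0.0184), with 6 HF arrays below every LF array.

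The kept probes of PTGDS and of LCN2 do not give independent readings of their genes. The 2 PTGDS probes share 1 sequence and so do the 3 LCN2 probes, which is why both are shown.
PTGDS: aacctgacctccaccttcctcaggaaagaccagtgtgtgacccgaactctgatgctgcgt
LCN2: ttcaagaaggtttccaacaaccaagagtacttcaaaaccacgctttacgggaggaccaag
The log2 fold changes of the identical probes were -1.24 and -1.26 for PTGDS, and -1.16, -1.17 and -1.18 for LCN2. Over all 2069 pairs of kept probes with identical sequence, the fold changes differed by a median of 0.03 (log2), so that probe-to-probe error was small beside these changes. Of the 274 DEG, 159 had kept probes of more than 1 sequence, and for 142 of those all probes had the same direction.

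Transcription factors were also among the under-expressed genes. SOX9, which keeps mesenchymal precursors from becoming adipocytes and drives cartilage formation, ran from -3.47 through -2.75 to -0.57 under HF and from -2.58 through -0.96 to -0.25 under LF. It fell by 1.33 ± 0.35 (log2, SE, 2.51-fold, adjusted p = 0.0419), and 7 HF arrays lay below every LF array. Its other probes, of 1 shared sequence, were well above background on only 5 and 6 HF arrays against 11 LF arrays each and add no support. NFE2, a factor of erythroid cells and megakaryocytes, had levels between -3.41 and -1.05 under HF and between -2.05 and -0.21 under LF, with 10 HF arrays below every LF array, and fell by 0.81 ± 0.24 (log2, SE, adjusted p = 0.0741). UPK1A, a tetraspanin of the urothelium, fell by 0.81 ± 0.23 (log2, SE, adjusted p = 0.0628). NFE2 and UPK1A each kept the call in 9 of the 24 fits that left out 1 array.

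**Figure D2:**
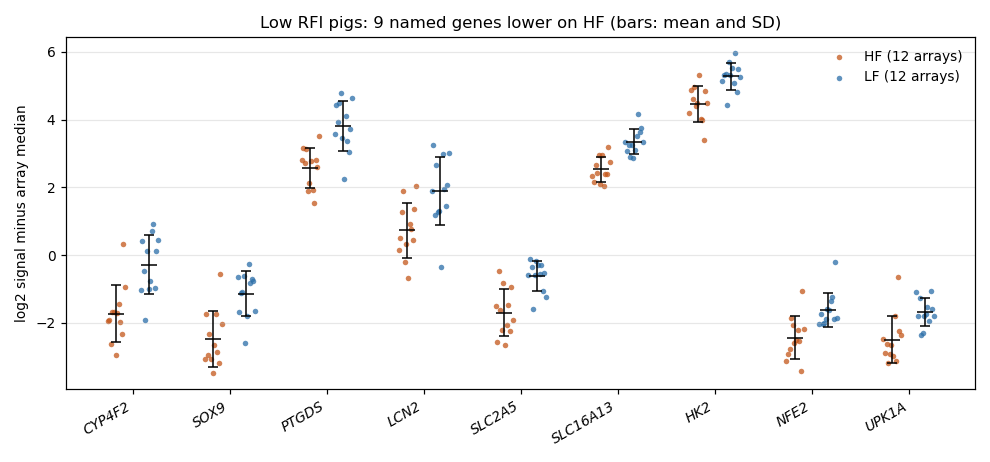
Log2 signal minus the array median of 9 named genes with the largest decreases under HF, in each of the 12 HF and 12 LF low RFI pigs (points), with group mean and SD (bars). Levels of different genes come from different probes and are not comparable. The groups overlap for each gene, and NFE2 has the most HF arrays below the whole LF range (10), followed by SLC16A13 (9).

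Among genes with concordant probes, called increases stayed under 2-fold. ABCC5, an ABC transporter that exports organic anions and nucleotides, ran from 2.36 through 2.85 to 3.41 under HF and from 1.35 through 2.26 to 2.54 under LF. It rose by 0.68 ± 0.13 (log2, SE, 1.60-fold, adjusted p = 0.0101), with 8 HF arrays above every LF array. KAZALD1, a secreted protein with an insulin-like growth factor binding domain, ran from 3.86 through 4.58 to 5.24 under HF and from 3.08 through 3.79 to 4.44 under LF, and rose by 0.73 ± 0.16 (log2, SE, adjusted p = 0.0177). All HF arrays lay above the LF median, 6 of them above every LF array. LRRC38, an auxiliary subunit of calcium-activated potassium channels, was dim, with levels from -3.63 to -2.29 under HF and from -4.09 to -2.89 under LF, and rose by 0.68 ± 0.16 (log2, SE, adjusted p = 0.0203). For LRRC38, 9 HF arrays lay above every LF array.

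The remaining over-expressed genes of the upper 10 were ADGB, a large globin, MLPH, which links pigment granules to motor proteins, VWCE, TXNDC16, TRUB1, a pseudouridine synthase, VWA5A and TMEM98. Their log2 increases ran from 0.69 ± 0.19 (SE) for TMEM98 to 0.98 ± 0.28 for MLPH, with adjusted p between 0.0135 (ADGB) and 0.0793 (TRUB1). ADGB and VWA5A kept their call in all 24 fits that left out 1 array, whereas MLPH did so in 12 and TRUB1 in 9. Of the 2 TRUB1 probes 1 was called, and the other gave 0.35. Except for KAZALD1, TMEM98 and ABCC5, the HF median of these genes lay below the median probe of the array.

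**Figure D3:**
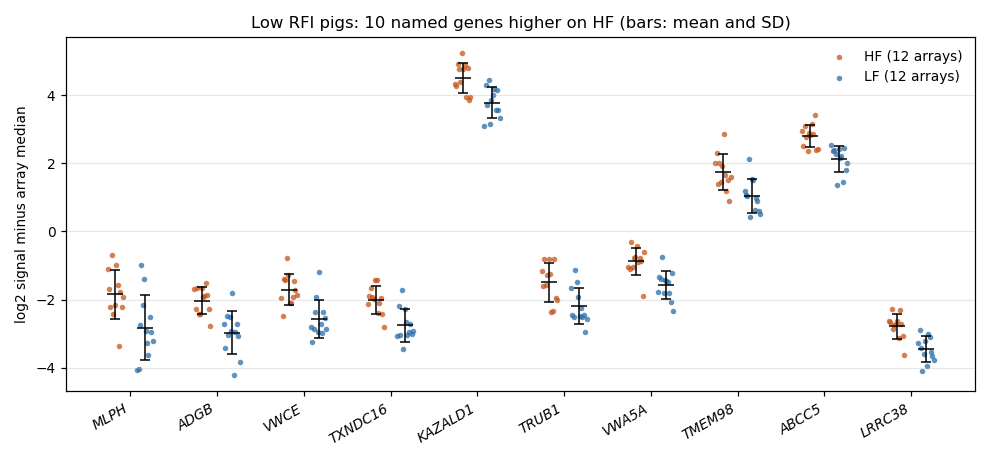
Log2 signal minus the array median of the 10 genes with the largest called increase under HF among those with concordant probes and both groups well above background, in each of the 12 HF and 12 LF low RFI pigs (points), with group mean and SD (bars). The HF and LF ranges overlap for each gene, and LRRC38 and ABCC5 have the most HF arrays above the whole LF range (9 and 8).

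Of 546 tested members of 25 pathway lists, 18 were called (3.30%, against 2.47% of all genes), 15 lower and 3 higher under HF. A log2 fold change under 0 was found for 390 members, beside 59.8% of all genes tested, and 19 of the 25 list medians lay under the median of all genes (-0.04). Fewer cells of a type and less RNA per cell cannot be told apart in such tissue samples. The lists and their medians are described and not tested, and their counts at a raw p under 0.05 stand beside 1666 of 11113 genes in all.

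In glucose uptake and glycolysis, 1 of 20 tested members was called (HK2, lower), 19 had a log2 fold change under 0, and the median was -0.16. Under 0 were also all 15 members of the citric acid cycle (median -0.11) and 45 of 50 subunits and carriers of oxidative phosphorylation (median -0.10), with 0 called in either list (limma, 0 and 4 at a raw p under 0.05). The smallest raw p in these lists belonged to CS, citrate synthase (-0.16 ± 0.10, log2, SE, adjusted p = 0.467), and CYCS, cytochrome c (-0.36 ± 0.12, adjusted p = 0.116). Of the 12 genes of pyruvate entry none was called (median -0.18, 2 at a raw p under 0.05), and PC, pyruvate carboxylase, differed by -0.13 ± 0.06 (log2, SE, adjusted p = 0.255). The dimmest of the 3 PC probes was called at the level of probes (-0.31 ± 0.09, adjusted p = 0.0717). In glycogen turnover, GSK3B, the kinase that restrains glycogen synthase, was the 1 called gene of 15 (median -0.17). GSK3B ran from 1.83 through 2.07 to 2.35 under HF and from 2.07 through 2.37 to 2.76 under LF, and fell by 0.29 ± 0.07 (log2, SE, adjusted p = 0.0288). Of its 3 probes, all lower, 1 was called.

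No gene of fatty acid synthesis passed the test in the main fit. Among the 16 tested members 13 had a log2 fold change under 0, the median was -0.16, and 3 had a raw p under 0.05. ACLY, which makes cytosolic acetyl-CoA, had levels from 6.93 through 8.19 to 8.88 under HF and from 7.67 through 8.68 to 9.24 under LF, a difference of -0.50 ± 0.24 (log2, SE, adjusted p = 0.327). ACACA, the first committed enzyme of the pathway, ran from 4.73 to 7.34 under HF and from 4.73 to 7.48 under LF and differed by -0.47 ± 0.29 (adjusted p = 0.456). ME1, which supplies NADPH, differed by -0.50 ± 0.27 (log2, SE, adjusted p = 0.391), SCD, the stearoyl-CoA desaturase, by -0.24 ± 0.13 (adjusted p = 0.406) and FASN, the fatty acid synthase, by -0.16 ± 0.10 (adjusted p = 0.456). ELOVL1, a fatty acid elongase, had the smallest raw p of the list (-0.16 ± 0.07, log2, SE, adjusted p = 0.253). Over the alternative fits (limma), the lowest adjusted p was 0.0561 for ELOVL1, 0.0591 for ACLY, 0.0611 for FASN, 0.0971 for SCD and 0.115 for ACACA. LF replicate 7 had the lowest LF level of both ACACA (4.73) and ME1 (4.83).

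FASN was read by 5 probes, whose log2 fold changes ran from -0.53 to -0.16, none of them called. The brightest probe, used above, gave the value nearest 0.

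Storage, release and uptake of fatty acids gave 1 DEG, a gene of uptake that was lower under HF. The 16 tested genes of uptake had a median of -0.06. None of 16 genes of triglyceride synthesis (median -0.04, 3 at a raw p under 0.05), 15 of lipolysis and the lipid droplet (median -0.18, 4), 25 of fatty acid oxidation (median -0.03, 1) and 20 of cholesterol synthesis (median -0.13, 3) was called by limma. Of these lists the members with the smallest raw p were GPAT3, an acyltransferase of triglyceride synthesis (0.66 ± 0.22, log2, SE, adjusted p = 0.117), CIDEA, a lipid droplet protein (-0.45 ± 0.14, adjusted p = 0.0928), CPT1B, an enzyme of fatty acid entry into mitochondria (0.33 ± 0.11, adjusted p = 0.126), and STARD4, a sterol carrier (-0.52 ± 0.19, adjusted p = 0.141). NNT, the mitochondrial transhydrogenase, led the 10 genes of NADPH supply (-0.27 ± 0.10, adjusted p = 0.187), of which none was called (median -0.16, 1 at a raw p under 0.05).

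Of 29 tested genes of protein folding in the endoplasmic reticulum (ER), 3 were called, all lower, 26 had a log2 fold change under 0 and 12 a raw p under 0.05, with a median of -0.19, the lowest of the 25 lists. ATF4, the transcription factor of the integrated stress response, ran from 7.44 through 7.74 to 8.13 under HF and from 7.78 through 8.15 to 8.32 under LF. All 12 HF arrays lay below the LF median, and ATF4 fell by 0.37 ± 0.08 (log2, SE, adjusted p = 0.0111), with 5 of its 7 probes called. DNAJC3, a co-chaperone of the ER, fell by 0.26 ± 0.07 (log2, SE, adjusted p = 0.0490), and OS9, a lectin of ER-associated degradation, by 0.22 ± 0.06 (adjusted p = 0.0676). OS9 kept its call in 8 of the 24 fits that left out 1 array. For DNAJC3 1 of 3 probes was called and for OS9 1 of 2, though all were lower.

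Among 42 tested proteasome genes, 38 had a log2 fold change under 0 and 13 a raw p under 0.05, and the median was -0.13. Only the lid subunits PSMD7 and PSMD12 passed the test, falling by 0.20 ± 0.05 (log2, SE, adjusted p = 0.0458) and 0.20 ± 0.06 (adjusted p = 0.0576). Both were lower on average under HF on all 6 slides, and they kept the call in 18 and 15 of the 24 fits that left out 1 array, with adjusted p up to 0.108 and 0.111. Of 16 genes of autophagy and the lysosome (median -0.07), the proteases CTSA and CTSD were called. CTSA ran from 5.64 through 5.79 to 5.85 under HF and from 5.81 through 6.03 to 6.15 under LF, and fell by 0.25 ± 0.05 (log2, SE, adjusted p = 0.0105). Of the 3 CTSA probes, all lower, 1 was called, and the smallest decrease was -0.14. CTSD ran from 7.52 through 7.73 to 7.94 under HF and from 7.83 through 8.05 to 8.20 under LF, with 10 HF arrays below every LF array, and fell by 0.32 ± 0.08 (log2, SE, adjusted p = 0.0260).

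Of 29 antioxidant genes (median -0.12), 25 had a log2 fold change under 0 and 2 were called. TXNRD1, the cytosolic thioredoxin reductase, ran from 4.06 through 4.57 to 5.03 under HF and from 4.59 through 5.15 to 5.55 under LF, and fell by 0.56 ± 0.11 (log2, SE, 1.47-fold, adjusted p = 0.0105). Its 7 probes, each of its own sequence, all had the same direction and 6 were called. GCLM, the regulatory subunit of the enzyme that starts glutathione synthesis, fell by 0.48 ± 0.12 (log2, SE, adjusted p = 0.0310). GCLM had 3 of its 4 probes called.

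**Figure D4:**
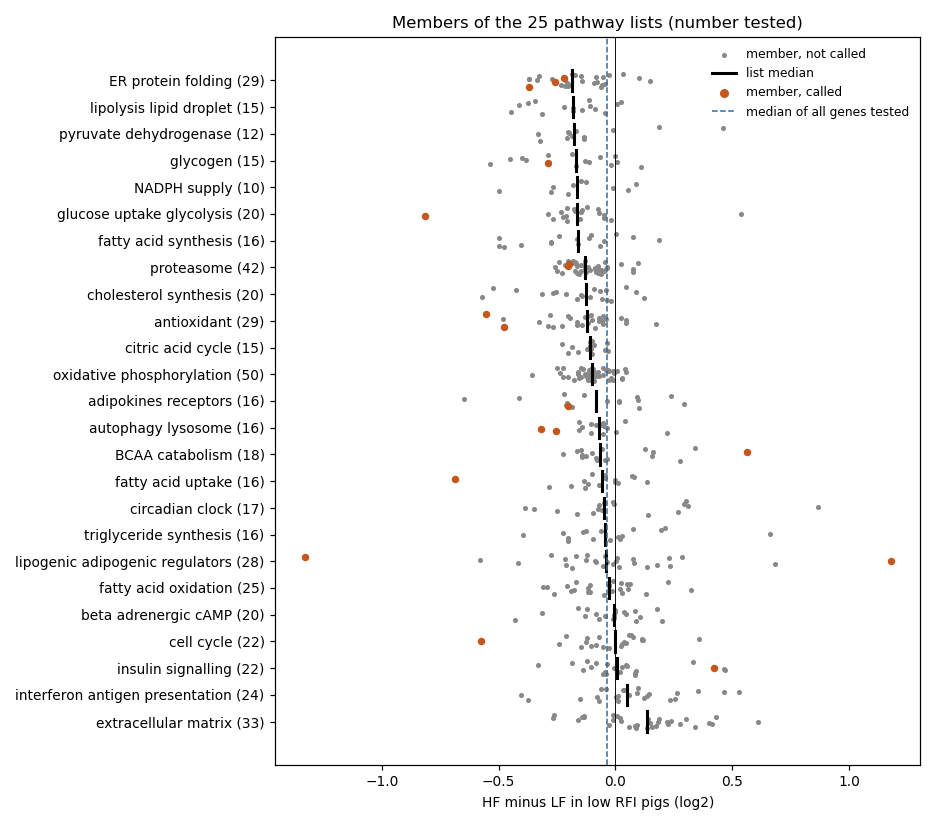
Log2 fold change (HF minus LF in low RFI pigs) of each tested member of the 25 pathway lists, with called members in colour, list medians as black bars and the median of all genes as a dashed line. ER protein folding has the lowest median (-0.19) and extracellular matrix the highest (0.13), and most list medians lie left of the dashed line.

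Among 28 transcription factors and receptors that steer fat metabolism, SOX9 was called lower and PPARA higher, 10 had a raw p under 0.05, and the median was -0.04. SREBF1 differed by -0.17 ± 0.14 (log2, SE, adjusted p = 0.599), MLXIPL by -0.42 ± 0.21 (adjusted p = 0.336) and PPARG by -0.13 ± 0.08 (adjusted p = 0.512). For RXRA the difference was -0.21 ± 0.08 (adjusted p = 0.147), while its dimmer probe was called at the level of probes (-0.45 ± 0.14, adjusted p = 0.0704). PPARD, a receptor for fatty acids, ran from 2.26 through 3.11 to 3.995 under HF and from 3.12 through 3.69 to 4.07 under LF, with 7 HF arrays below every LF array, and its difference of -0.58 ± 0.19 (log2, SE, adjusted p = 0.104) missed the cut-off. Over the fits that left out 1 array its adjusted p ran from 0.0600 to 0.199, and its other 3 probes gave -0.17, -0.10 and -0.05. With slide as a block PPARD and RXRA were called, as was CIDEA, and with array weights LEP was called too (lowest adjusted p over the alternatives 0.0144 for PPARD, 0.0210 for RXRA, 0.0120 for CIDEA and 0.0486 for LEP). These are not all such genes. The lowest adjusted p over the alternatives (limma) was also under 0.08 for CYCS (0.0260), NNT (0.0290), STARD4 (0.0445) and GPAT3 (0.0616), among others.

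PPARA is uncertain, since its probes disagreed. The brightest one ran from -1.36 through 0.34 to 1.09 under HF and from -2.04 through -1.26 to 0.61 under LF, and rose by 1.18 ± 0.32 (log2, SE, 2.26-fold, adjusted p = 0.0450). The other kept probes gave -0.36 ± 0.21, -0.17 ± 0.16 and 0.52 ± 0.25 (log2, SE), none of them called. The probes at -0.36 and -0.17 share 1 sequence. It is shown with that of the probe at 0.52 because these are the readings that set the call in doubt.
PPARA, probes at -0.36 and -0.17: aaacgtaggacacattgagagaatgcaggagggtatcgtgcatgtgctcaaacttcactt
PPARA, probe at 0.52: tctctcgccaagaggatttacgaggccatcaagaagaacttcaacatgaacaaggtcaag
HOMER2, a scaffold protein (-0.63 ± 0.18, log2, SE, adjusted p = 0.0578), had 7 of 8 probes in 1 direction. ZNF318, a zinc finger protein (0.49 ± 0.10, adjusted p = 0.0105), had 2 of 3, so that both are uncertain as well.

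Hormones of the adipocyte and their receptors gave 1 DEG of 16 tested (median -0.08). LEP, leptin, ran from 2.16 through 3.30 to 4.48 under HF and from 3.48 through 4.0004 to 4.99 under LF, with 7 HF arrays below every LF array. At its brightest probe the difference of -0.65 ± 0.23 (log2, SE, adjusted p = 0.137 over genes) was not called. Its 4 probes hold 2 sequences, and both probes of the dimmer one, given here, were called at the level of probes (-0.69 ± 0.20, adjusted p = 0.0560, and -0.72 ± 0.22, adjusted p = 0.0707), whereas both probes of the brighter one missed the cut-off (-0.65, adjusted p = 0.102 and 0.131).
LEP: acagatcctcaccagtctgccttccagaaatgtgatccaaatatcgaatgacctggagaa
ADIPOQ, adiponectin, differed by 0.10 ± 0.08 (log2, SE, adjusted p = 0.629), and its receptor ADIPOR2 fell by 0.20 ± 0.06 (adjusted p = 0.0781), a call kept in 7 of the 24 fits that left out 1 array. Of the 6 ADIPOR2 probes, all lower, 1 was called, and the smallest decrease was -0.06.

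In insulin signalling, 1 of 22 genes was called (median 0.01). IRS1, the docking protein of the insulin receptor, ran from 2.995 through 3.41 to 3.98 under HF and from 2.61 through 3.12 to 3.58 under LF, and rose by 0.42 ± 0.12 (log2, SE, 1.34-fold, adjusted p = 0.0640). Of its 4 probes 3 had this direction and 1 was called, the call was kept in 13 of the 24 fits that left out 1 array, and the direction held on 4 of 6 slides, so that IRS1 is uncertain too. IVD, which oxidizes isovaleryl-CoA from leucine, was the 1 called gene of 18 in branched-chain amino acid breakdown (median -0.07) and rose by 0.56 ± 0.16 (log2, SE, adjusted p = 0.0566). Of its 3 probes 1 was called, the call was kept in 16 of the 24 fits that left out 1 array (adjusted p up to 0.124), and the difference within position 7 was -0.33. CDKN1A, the cell cycle inhibitor p21, was the 1 called gene of 22 of the cell cycle, where 11 members lay on each side of 0. It fell by 0.58 ± 0.18 (log2, SE, adjusted p = 0.0789) and kept its call in 7 of the 24 fits that left out 1 array. Of its 4 probes, all lower, 2 were called.

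Genes of the extracellular matrix went the other way from most lists, with 24 of 33 log2 fold changes over 0 and a median of 0.13, but none was called (limma, 6 at a raw p under 0.05). Markers of fibroblasts and their progenitors (7 of 9 over 0, median 0.12) and of smooth muscle (5 of 6 over 0, median 0.08) lay on the same side, and adipocyte markers on the other (8 of 12 under 0, median -0.12). Their part in the matrix values was not tested. TIMP3, an inhibitor of matrix proteases, had the smallest raw p and a difference of -0.26 ± 0.09 (log2, SE, adjusted p = 0.126). None was called either among 24 genes of interferon response and antigen presentation (median 0.05, 1 at a raw p under 0.05, IRF7 at -0.41 ± 0.16), 20 of adrenergic signalling (median -0.01, 1, NPR3 at -0.31 ± 0.15) and 17 of the circadian clock (median -0.05, 4, PER3 at 0.30 ± 0.10; log2, SE).

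No cell type marker passed the test in any of 10 lists, that of adipocytes included (limma, 0 of 91 genes called, 8 at a raw p under 0.05). The mean log2 level of the 13 macrophage markers ran from 1.12 to 2.42 under HF and from 1.07 to 2.75 under LF, and that of the 10 skeletal muscle markers from -1.34 to 1.24 and from -1.26 to 1.20. Mean levels of the 8 blood markers ran from 0.31 to 1.40 under HF and from 0.36 to 1.76 under LF, with 7 of 8 fold changes under 0 (median -0.15). NFE2, named above as a factor of blood cells, moved in the same direction as these markers, and their part in its decrease was not tested. The 4 tested lymphatic markers had the highest median, 0.47, with CCL21, a chemokine of lymphatic vessels, at 1.38 ± 0.44 (log2, SE, adjusted p = 0.0897).

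The response of the efficient line was set beside that of the high RFI line, which was measured in other pigs on the same slides. No gene or probe was called for a diet response that differed between lines (limma, interaction, 0 of 11113 genes called, smallest adjusted p 0.999964). The difference between lines has a larger SE than the diet response of 1 line (0.22 against 0.16 for LRRC38). The lack of calls therefore does not show that the responses were equal. At a raw p under 0.05 there were 99 genes (0.891% of those tested), a share below the one that this cut-off gives by itself when nothing differs. Of the 274 DEG of low RFI pigs, 272 moved the same way in the high RFI line, against 75.6% of all genes. High RFI pigs had 737 DEP (1.66% of probes tested) and 165 DEG (1.48% of genes tested), and 74 genes were called in both lines, which is 27.0% of the DEG in low RFI and 44.8% of those in high RFI pigs. The median log2 fold change of the 274 DEG was 0.33 in low RFI pigs, where they were selected, and 0.25 in the same direction in high RFI pigs.

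Set side by side, low RFI first and high RFI second, the log2 fold changes were -1.09 and -1.10 for SLC2A5, -0.82 and -0.78 for HK2, -1.24 and -1.34 for PTGDS, -0.82 and -0.87 for SLC16A13 and -1.33 and -1.80 for SOX9, each called in both lines. Fold changes were also near each other for ABCC5 (0.68 and 0.57) and TXNRD1 (-0.56 and -0.47), again called in both. NFE2 (-0.81 and -0.15, interaction raw p = 0.0600) and LRRC38 (0.68 and -0.02, interaction raw p = 0.00298) were called in low RFI pigs alone, but their difference between lines was not called (adjusted p = 0.999964 each). The smallest raw p for a difference between lines belonged to IFT140, a protein of cilia (0.24 and -0.17), SLC48A1, a heme transporter (0.05 and -0.63), and GATA3, a transcription factor that restrains adipocyte formation (-0.21 and 0.68; log2, low then high RFI).

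**Figure D5:**
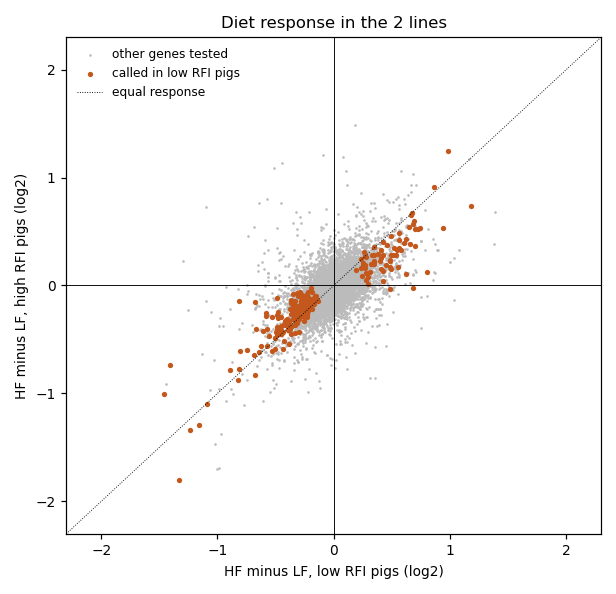
Log2 fold change by diet (HF minus LF) in low RFI pigs (horizontal axis) and high RFI pigs (vertical axis) for all 11113 genes tested (points), with the 274 DEG of low RFI pigs in colour and the line of equal response dotted. Of the coloured points, 272 have the same sign on both axes.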

How the data were processed

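The authors labelled RNA of subcutaneous fat with Cy3 for a 1-colour custom porcine Agilent array, 1 pig per array, read with Agilent Feature Extraction. The deposited scanner files hold spot intensity on a linear scale, here the background-subtracted processed signal. A second deposited table holds log2 values (median signal, centred on the array median, no background subtraction, made in R 2.10.0 per the labels), used as an alternative. Of 60306 non-control spots an array (60305 probes), 227 outlier readings over all arrays were left out, and none was saturated. Probes well above background on 9 or more of the 12 arrays of a group were kept, and log2 values were centred on each array's median. Symbols came from the array annotation and the RefSeq gene table (assembly Sscrofa11.1), for 23419 of 44356 kept probes. The annotation lists the probes as unmapped, so no genome position is given, and the number of arrays limits the precision.

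Diet within line was a contrast of the 4 group means on all 48 arrays (limma 3.58.1 with intensity trend, R 4.3.3), which shares 1 spread and was tested on simulated data. Genes were named by rule: the 10 largest called changes each way with concordant probes and both groups well above background on 9 of 12 arrays, up to 4 called members per list or the one with the smallest raw p, 13 lipogenic genes, 3 by interaction p and 3 with discordant probes. Some items the rule names are not reported here. The 25 pathway and 10 marker lists, their members and these rules were chosen with earlier results of these data known. Array measures were compared by permutation (100000 resamples, SciPy 1.17.1). Alternatives covered scaling, background, filter, batch, pairing, weights and model.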

Additional observations from a re-analysis of the deposited data

How the results depend on the processing

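The number of calls moved more than the directions did, which the design fixed in part. Diets were balanced over slides and scan dates, so blocking on either left the fold changes nearly as they were (median over all genes -0.035 each time). The other fits reused arrays that had made the calls, so kept directions are no independent support. Wherever they had a value, the 274 DEG kept their direction under each setting named here, except 1 of 266 with a value in the authors' deposited table and 1 when background outlier flags were left out too. Counts of DEG (274), DEP (1349) and called pathway members (18) rose to 558, 2373 and 31 with slide as a block, to 1194, 4138 and 82 with array weights, and DEG to 416 with scan date as a block. They fell to 0, 15 and 0 with array position as a block, to 2, 7 and 0 within the first scan date and to 0, 0 and 0 within the second, where 1220 genes and 4741 probes had a raw p under 0.05 (limma, 6 pigs a group). Quantile normalization gave 162 DEG, and 75th percentile scaling left 11 pathway members called. Pairing by replicate number (replicate block) gave 671 DEG, 2853 DEP and 37 pathway members, the 274 DEG among them. No label ties a number to a litter or day, though same-numbered HF and LF arrays shared a slide in all 12 pairs. Same-numbered residuals correlated over 0.1 in 9 of 12 pairs (0.04 to 0.46), and 4 of 12 HF arrays correlated best with their own number. Leaving out 1 low RFI array, chosen after seeing the data, gave 102 to 533 DEG, 649 to 2141 DEP and 8 to 40 pathway members. Without HF replicate 10 there were 102 DEG and without LF replicate 7 there were 533. The count also moved by more than 1.5 times without LF replicate 4 (425), HF replicates 3 (152), 6 (175) and 9 (135), and LF replicates 5 (156), 8 (134), 9 (113), 11 (130) and 12 (133). Leaving out LF replicates 4 and 7 together gave 702, 2895 and 50. The difference in the share of probes well above background stayed between 0.583 and 2.06 percentage points and that of the array median between 0.114 and 0.163. No interaction was called under any alternative. The log2 fold change of SLC48A1 changed sign within the first scan date (-0.0327) and ran from -0.0258 to 0.116 over the fits that left out 1 array, under 0 without HF replicate 4 or LF replicate 7. The log2 fold change of ELOVL1 changed sign when background outlier flags were left out (0.0473). The causes were not tested.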

Other observations

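When the 274 DEG were read through, 4 more lists were written from textbook membership: ribosome biogenesis, translation factors, cytosolic chaperones and ubiquitin enzymes. These lists were chosen after the values were seen, and their counts are a description only. Of their 163 tested members, 31 were called, all lower under HF (19.0%, against 1.84% of all genes lower). In ribosome biogenesis 14 of 60 tested genes were called and 52 had a log2 fold change under 0, with a median of -0.19. In high RFI pigs the median was -0.09. RRS1, a ribosome assembly factor, fell by 0.48 ± 0.10 (log2, SE, adjusted p = 0.0111), WDR43 by 0.46 ± 0.13 (adjusted p = 0.0640), RIOK2, a kinase of small subunit maturation, by 0.42 ± 0.08 (adjusted p = 0.0101) and RPF2 by 0.37 ± 0.08 (adjusted p = 0.0163).

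Of 46 translation factors 9 were called (median -0.07), among them ETF1, the release factor, which fell by 0.28 ± 0.06 (log2, SE, adjusted p = 0.0129), and EIF3J, which fell by 0.20 ± 0.05 (adjusted p = 0.0261). Of 31 cytosolic chaperones 30 had a log2 fold change under 0 and 6 were called, with DNAJB1 falling by 0.36 ± 0.10 (adjusted p = 0.0430) and DNAJA2 by 0.31 ± 0.08 (adjusted p = 0.0278). Of 26 ubiquitin-activating and conjugating enzymes 2 were called, UBE2L3 and UBE2G1, both lower (median -0.11). With 75th percentile centring, the number called was 6 in ribosome biogenesis, 2 in translation factors, 2 in chaperones and 1 in ubiquitin enzymes, and with array position as a block it was 0.

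GYS2, the liver form of glycogen synthase, was chosen after its values were seen. Its brightest probe differed by -0.13 ± 0.11 (log2, SE), while the other 3, dimmer and each of its own sequence, gave -1.14 ± 0.44, -1.15 ± 0.47 and -1.15 ± 0.46, none of them called (adjusted p from 0.171 to 0.203 over probes). These were well above background on 10, 3 and 8 HF and 10, 8 and 10 LF arrays, so that the values of the second and the last rest partly on signals near background.

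The naming rule left out 2 dim DEG. LEAP2, an antimicrobial peptide, was well above background on 4 HF and all 12 LF arrays, and FUZ on 9 HF and 3 LF arrays.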
